A study of Mus musculus with 30 samples.

Results

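Wnt proteins act through Frizzled receptors and Lrp co-receptors to stabilise β-catenin, which then enters the nucleus and works with TCF/LEF factors on target genes. The pathway also limits itself. Axin2 and Nkd1 are targets that act back inside the cell, Notum is a secreted enzyme that inactivates Wnt ligands, and the membrane ubiquitin ligases Rnf43 and Znrf3 remove Frizzled receptors from the cell surface. R-spondins bound to Lgr4 or Lgr5 counteract these ligases. In the adult lung the pathway is known for its part in the upkeep of alveolar type 2 cells. Acetylation of lysine 27 on histone H3 (H3K27ac) marks active promoters and enhancers. A peak of this mark near a gene is a measure of its chromatin and not of its transcript level.

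The 10 genes described were Axin2, Lgr4, Lgr5, Rnf43, Znrf3, Nkd1, Notum, Porcn, Ctnnb1 and Tcf7l2. They were chosen by name and not by a rule on any measured value, though earlier results of these data were known. The annotation held 55450 genes, of which 21938 were protein-coding genes on the main chromosomes. For each, peaks were sought within 50 kb of the gene. A promoter peak overlapped a window of 2.5 kb on either side of any annotated start site of the gene. All other peaks in reach were called distal. They were split into those at the promoter of another gene and those away from every start site, called remote.

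The study mapped H3K27ac, H3K9me2 and input DNA in 2 cultured mouse lung adenocarcinoma lines, CK1750 and Tnm2, which received either the solvent DMSO or 1 µM UNC0638, an inhibitor of the H3K9 methyltransferases G9a and Glp. The labels give no length of treatment, and with 1 line on each side a difference between CK1750 and Tnm2 is one between 2 lines and not between kinds of tumour. Of 30 samples in 12 groups, 9 in 4 groups were H3K27ac samples (3 for CK1750 with DMSO and 2 in each other group), and the other 21 were not analysed here. By the replicate numbers in the labels these were 2 replicates in the CK1750 DMSO group, 1 in the CK1750 UNC0638 group and 2 in each Tnm2 group. The samples of a group share 1 deposited peak list, with 27367 peaks for CK1750 with DMSO, 24601 for CK1750 with UNC0638, 30641 for Tnm2 with DMSO and 18794 for Tnm2 with UNC0638. There is therefore no spread between replicates, no difference could be tested, and the depth behind each list is unknown. A score is minus 10 times the log10 of the caller's P value and starts at 50 in every list. Since scores grow with depth, each peak is also given as a percentile, the share of peaks in the same list with a lower score, and where it matters as its rank from the top. The percentile depends on the length of the list, and the Tnm2 list with UNC0638 is the shortest.

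The labelled tissue was checked on promoter peaks of marker genes. Krt8, Krt18, Krt19 and Cdh1 had a promoter peak in all 4 lists and Epcam in none, and of 4 lung epithelial genes Nkx2-1, Foxa2 and Sftpc had one in all 4. The remaining one, Scgb1a1, had a weak peak with DMSO in both lines (scores of 53.02 and 57.88) and none with UNC0638. Of 3 leukocyte markers 0 had one in any list. Of 3 endothelial markers Pecam1 had one in both Tnm2 lists, and of 3 fibroblast markers Col1a1 had one in each list but Tnm2 with UNC0638. The part of such cells in the results was not tested.

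Promoter peaks were found at 6 of the 10 genes in each CK1750 list and at 4 of the 10 in each Tnm2 list. These numbers were the same under each of the 6 alternatives run for them, but not all of these could change them. A reach of 10 or 100 kb does not enter the definition of a promoter peak. Cutting the lists to equal numbers of peaks leaves that of Tnm2 with UNC0638, the shortest, as it is. Among all protein-coding genes the share was 50% and 49.1% in CK1750 with DMSO and UNC0638, and 49.4% and 41.3% in Tnm2. Lgr4, Znrf3, Ctnnb1 and Tcf7l2 had a promoter peak in every list, as did 39.3% of protein-coding genes. Rnf43 and Porcn had one in both CK1750 lists and in neither Tnm2 list. Axin2, Lgr5, Nkd1 and Notum had none in any list, as was the case for 46% of protein-coding genes. UNC0638 changed the presence of a promoter peak at 0 of the 10 genes in either line. In the background, a promoter peak was present with DMSO only at 4.85% of the genes that had one with DMSO in CK1750 and at 17.7% in Tnm2, and with UNC0638 only at 3.08% and 1.45% of those with one under UNC0638. Between the lines, 7.47% of genes with a promoter peak in CK1750 with DMSO and 18.7% of those with one in CK1750 with UNC0638 had none in the matching Tnm2 list, while 6.34% and 3.21% of genes with one in Tnm2 had none in the matching CK1750 list. The comparisons of lines and of treatments share lists, so they are not independent.

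**Figure D1:**
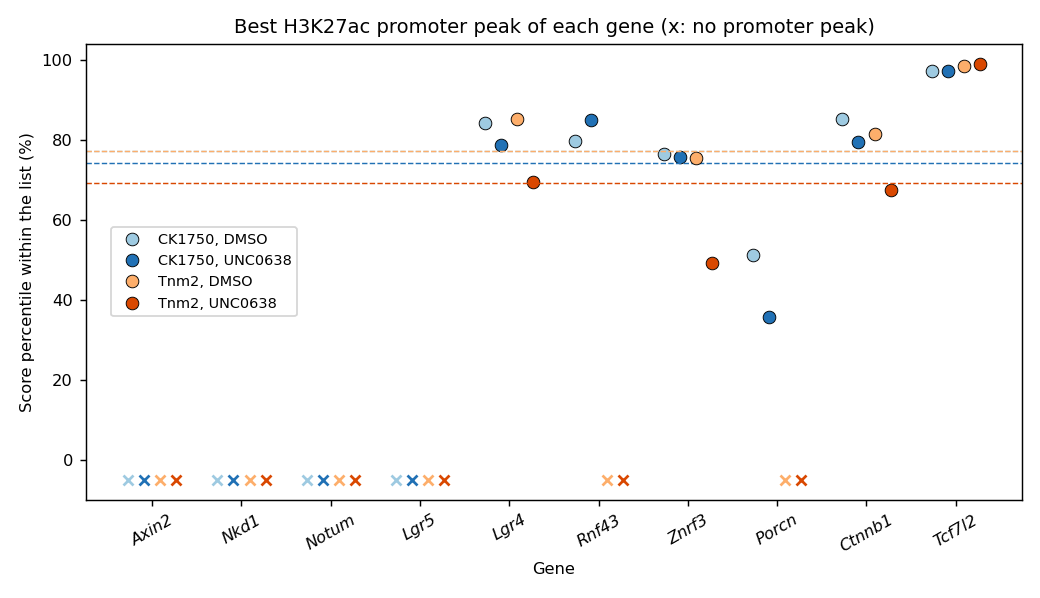
Best promoter peak of each gene (horizontal axis) as a score percentile within its list (vertical axis, %), 1 dot for each of the 4 lists, with crosses where no promoter peak was listed; dashed lines are the medians over all protein-coding genes with a promoter peak. Tcf7l2 lies at 97.3 or above in every list, Rnf43 and Porcn have dots for CK1750 and crosses for Tnm2, and the lowest dots of Lgr4, Znrf3 and Ctnnb1 are those of Tnm2 with UNC0638. The dots of Rnf43 are a peak at the promoter of Supt4a, beyond the 3′ end of Rnf43.

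The median percentile of the best promoter peak over the genes that had one was 82.0 and 79.1 in CK1750 with DMSO and UNC0638, and 83.5 and 68.5 in Tnm2. These are medians over 6 genes in CK1750 and 4 in Tnm2. For Rnf43 the best peak lay at the promoter of Supt4a beyond its 3′ end (79.8 and 84.9). At its 5′ start sites the best stood at 66.5 and 68.7. Over all protein-coding genes with a promoter peak the same medians were 77.2, 74.1, 77.3 and 69.1. The median was lowest in Tnm2 with UNC0638 for the members and for all genes. The gap to DMSO in Tnm2 was wider for the members, but the gaps are not like for like. The members are the same 4 genes in both Tnm2 lists, while the medians over all genes rest on 10845 and 9057 genes. With lists of equal length the Tnm2 medians of the members were 73.1 and 68.5, and no median over all genes is given for that setting.

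The feedback genes that act inside the cell or are secreted come first. Axin2, the scaffold of the β-catenin destruction complex that is widely used as a reporter of pathway activity, lies on chromosome 11 at 108920349 to 108950783 (mm10). No list held a peak within 50 kb of it. The nearest peak was 397 and 393 kb from the gene in CK1750 with DMSO and UNC0638, and 361 and 381 kb in Tnm2, with scores of 52.81, 64.08, 69.52 and 50.39. All of these were weak peaks, at or under percentile 21.3 of their lists. Axin2, Lgr5 and Nkd1 were the 3 of the 10 genes with no peak in reach in any list, which was true of 22.4% of protein-coding genes.

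The promoter of Axin2 is shown because its base composition differs from that of most genes without a peak. The 250 bases before its start site (chr11:108920099-108920348, plus strand, RefSeq, GRCm38.p6) read as follows.
Axin2: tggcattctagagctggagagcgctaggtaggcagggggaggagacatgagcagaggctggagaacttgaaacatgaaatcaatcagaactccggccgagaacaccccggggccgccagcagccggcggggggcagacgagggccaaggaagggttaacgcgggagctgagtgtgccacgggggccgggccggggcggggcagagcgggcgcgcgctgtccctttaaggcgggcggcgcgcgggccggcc
Together with the first 50 bases of the transcript this window had a GC content of 70.0% and a CpG ratio, observed over expected from base composition, of 0.89. Of 8278 protein-coding genes with a ratio of at least 0.6, 17.4% had a promoter peak in no list, against 71% of 8225 genes with a lower ratio. Axin2 belongs to the former group without a peak. Nkd1, whose RefSeq window had a ratio of 0.25, belongs to the latter by that window. The window lies 6279 bases from the 5′ end of the annotated gene, and the ratio at that end was not measured.

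Nkd1, an inhibitor that binds Dishevelled, lies on chromosome 8 at 88521354 to 88594884. Its nearest peak was at the promoter of Cyld, 102 kb away, in CK1750 with DMSO, CK1750 with UNC0638 and Tnm2 with UNC0638. In Tnm2 with DMSO a weak peak at Nod2, with a score of 85.09, was nearer, at 55 kb. This peak lay just outside the reach of 50 kb.

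Notum, a secreted carboxylesterase that removes the lipid from Wnt ligands, lies on chromosome 11 at 120653788 to 120661175 in a stretch dense in genes. It had 6 peaks within 50 kb in each list but that of Tnm2 with UNC0638, which had 5. All of them lay at promoters of neighbouring genes and none was remote. The highest in every list was at Mafg, with scores of 3100 and 3100 in CK1750 with DMSO and UNC0638, and 2987.46 and 1307.48 in Tnm2. Notum thus stood between marked neighbours without a promoter peak of its own in any list, and the nearest peak was never closer than 10 kb.

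Among the R-spondin receptors, Lgr4 and Lgr5 differed in all 4 lists. Lgr4 (chromosome 2, 109917647 to 110014257) had 1 promoter peak in each list, over its 5′ start site. It scored 797.31 in CK1750 with DMSO (percentile 84.3, rank 4304) and 606.55 with UNC0638 (78.7, rank 5246). In Tnm2 it scored 603.1 with DMSO (85.3, rank 4491) and 201.11 with UNC0638 (69.5, rank 5724). The percentile was lower with UNC0638 in both lines, and the larger drop was in Tnm2. Over all shared regions the median difference was -1.78 points in CK1750 and -11.02 in Tnm2. Lgr4 had no remote peak in any list. The promoter of Lin7c upstream carried a peak at percentile 95.7 to 97.8 in every list, and that of Ccdc34 downstream one in CK1750 only, with scores of 140.59 and 158.0. The bases before the start site of Lgr4 (chr2:109917397-109917646, plus strand, RefSeq, GRCm38.p6), next to the listed peak, are given to set beside those of Axin2.
Lgr4: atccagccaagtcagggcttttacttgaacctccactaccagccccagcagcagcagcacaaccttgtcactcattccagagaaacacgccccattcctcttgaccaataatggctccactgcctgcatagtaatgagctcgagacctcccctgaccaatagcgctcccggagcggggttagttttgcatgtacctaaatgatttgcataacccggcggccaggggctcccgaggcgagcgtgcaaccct
With its first 50 transcribed bases this window had a GC content of 58.3% and a CpG ratio of 0.71, both lower than for Axin2, which had no peak.

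Lgr5, a receptor known as a marker of intestinal stem cells, lies on chromosome 10 at 115450311 to 115587780. It had no peak within 50 kb in any list. The nearest was a strong peak 64 to 64.3 kb from the 3′ end of the gene, at the promoters shared by Thap2 and Zfc3h1, with scores of 2165.4 and 2394.01 in CK1750 with DMSO and UNC0638, and 1344.99 and 298.16 in Tnm2. Both lists of each line thus left the start site and the whole body of Lgr5 without a peak.

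The receptor-removing ligases Rnf43 and Znrf3 differed from each other between lines. Rnf43 (chromosome 11, 87662722 to 87735539) had 3 peaks at its 5′ start sites in each CK1750 list and 0 in each Tnm2 list. The best of them scored 302.19 with DMSO (percentile 66.5) and 375.51 with UNC0638 (percentile 68.7). A peak over the first start site scored 278.71 and 319.66 in the same lists. The 3 regions span 87662437 to 87667082, and the start sites there number 4.

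A further CK1750 peak counted for Rnf43 lay beyond the 3′ end of the gene, at the promoter of Supt4a, which encodes a transcription elongation factor. It scored 596.74 and 856.53, and it counted because its edge was 2.28 and 2.15 kb from the start of a short non-coding Rnf43 transcript. In Tnm2 the matching peaks began 2.63 kb (DMSO) and 2.58 kb (UNC0638) from that start, just outside the window, with scores of 155.29 and 76.36. A second Tnm2 peak at the same promoter, farther from that start, scored 264.61 and 125.67. This part of the line difference thus turns on the edge of the window, while the difference at the 5′ start sites does not. A remote region 14.4 kb from that transcript start, at 87748356 to 87750563, carried a peak in all 4 lists. It scored 980.78 and 1678.43 in CK1750 and 482.61 and 363.74 in Tnm2, at percentiles 87.3, 94.1, 81.3 and 85.1. This was the highest distal peak of Rnf43 in each list.

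**Figure D2:**
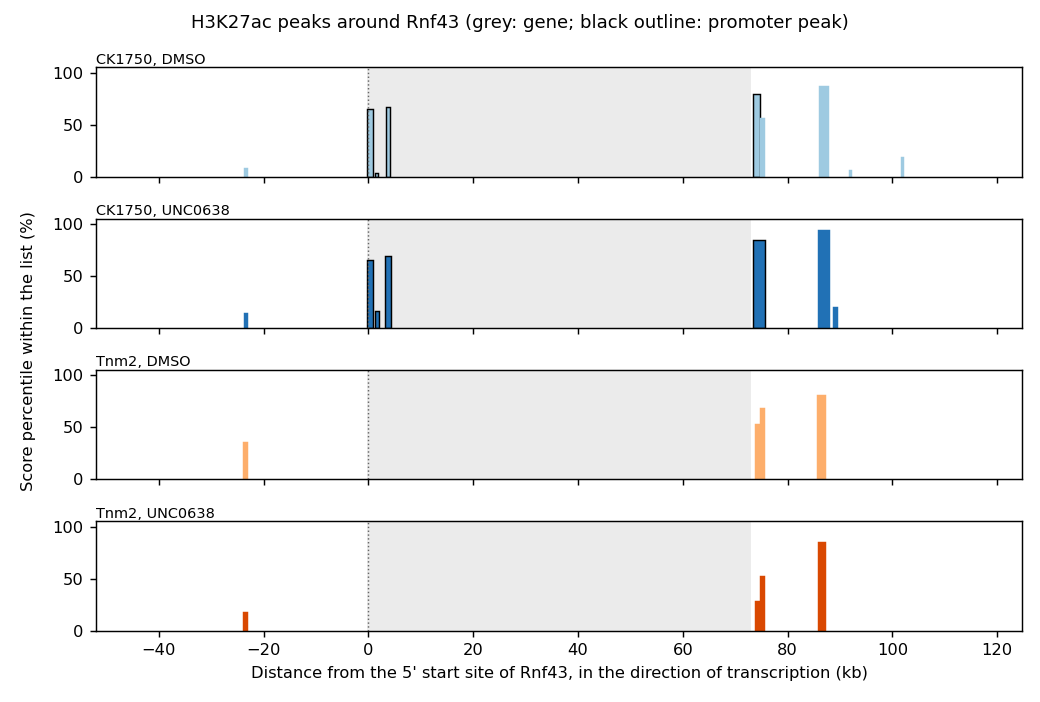
H3K27ac peaks around Rnf43 in the 4 lists (panels); horizontal axis, distance from the 5′ start site in the direction of transcription (kb); vertical axis, score percentile within the list (%); each bar is a peak drawn at its width, black outlines mark promoter peaks and grey the gene. The 3 peaks at the 5′ end are in both CK1750 panels and in neither Tnm2 panel, while the remote peak beyond the 3′ end is in all 4.

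Znrf3 (chromosome 11, 5276324 to 5444847) had 1 promoter peak in each list. It scored 496.96 (percentile 76.5) and 524.46 (75.7) in CK1750 with DMSO and UNC0638, and 356.99 (75.4) and 117.22 (49.2) in Tnm2. The first 3 lists placed it at nearly the same percentile. In Tnm2 with UNC0638 its percentile was lower by 26.2 points than with DMSO. Its ranks there were 7546 with DMSO and 9556 with UNC0638, in lists of unequal length. Shared regions lower by at least 20 points made up 31.8% of all shared regions in that comparison. The highest distal peak in the same 3 lists was at the promoter of Kremen1, an antagonist that binds Dkk proteins, with scores of 222.16, 216.19 and 105.23. In Tnm2 with UNC0638 that peak scored 53.47, and a remote peak upstream of Znrf3 was higher, at 89.5. Inside the gene body away from the start site, 1 weak peak was listed (score 50.37, CK1750 with UNC0638).

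Porcn, the enzyme that adds the lipid to Wnt ligands and so allows their secretion, lies on the X chromosome at 8193848 to 8206525. Its promoter peak was listed in CK1750 with DMSO (score 160.4, percentile 51.3, rank 13337) and with UNC0638 (111.64, 35.8, rank 15788), and in neither Tnm2 list. These were the lowest best promoter peaks of any member in CK1750. Within 50 kb there were 11 and 7 peaks in CK1750 with DMSO and UNC0638, and 6 and 4 in Tnm2, of which 6, 2, 3 and 1 were remote. In CK1750 UNC0638 left 7 of 11 regions, and the 4 without a peak were all remote. The neighbouring promoter of Rbm3 had the highest distal peak in each list, with scores of 696.93 and 343.03 in CK1750 with DMSO and UNC0638, and 262.75 and 90.15 in Tnm2. At the promoters of all 4 marked neighbours (Rbm3, Tbc1d25, Ebp and Ftsj1) the peak stood at a lower percentile in Tnm2 than in CK1750 under the same treatment, or was missing there. The difference between lines was thus shared by Porcn and these neighbours. The treatments were not so alike: with UNC0638 in CK1750 the Porcn promoter peak was lower while that of Tbc1d25 was higher (percentile 57.4 against 51.4), and in Tnm2 the Ebp peak was listed with UNC0638 only.

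**Figure D3:**
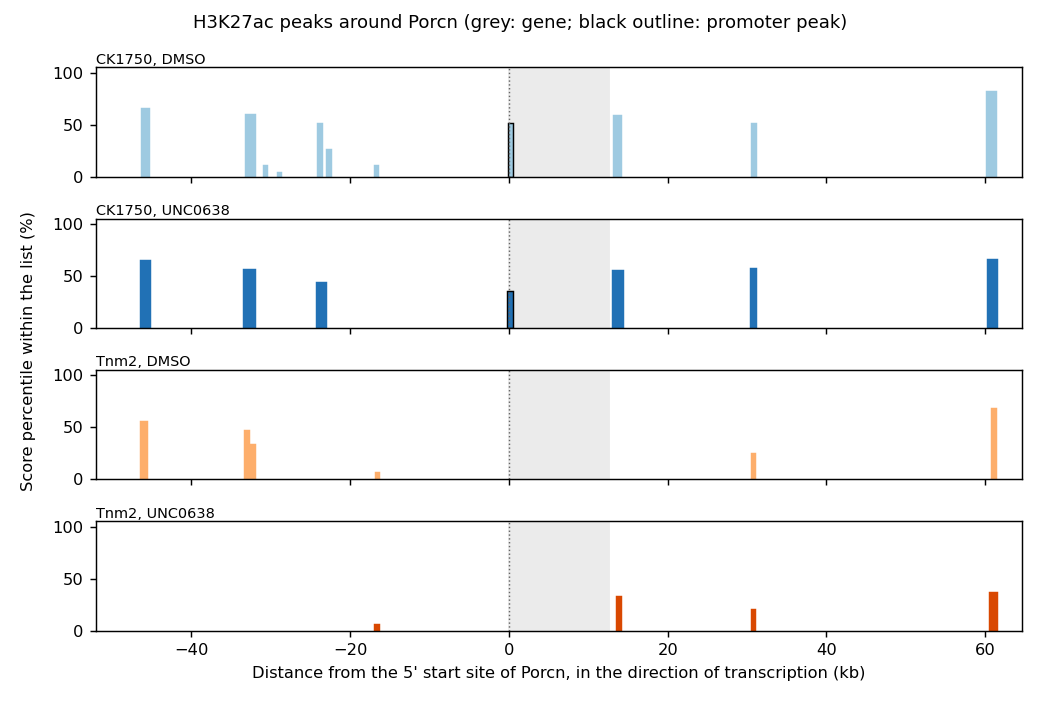
H3K27ac peaks around Porcn in the 4 lists (panels), with distance from the 5′ start site in the direction of transcription (kb) on the horizontal axis and score percentile within the list (%) on the vertical axis; bars are peaks at their width, black outlines mark promoter peaks and grey the gene. Peaks number 11 and 7 in the CK1750 panels and 6 and 4 in the Tnm2 panels, and the outlined promoter peak appears in CK1750 only.

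Ctnnb1, which encodes β-catenin, lies on chromosome 9 at 120929216 to 120960507. Its best promoter peak scored 855.85 (percentile 85.3, rank 4024) and 636.84 (79.6, rank 5031) in CK1750 with DMSO and UNC0638, and 489.28 (81.6, rank 5635) and 188.15 (67.5, rank 6109) in Tnm2. A second promoter peak, near an upstream start site, scored 181.73 and 232.17 in CK1750 and 186.45 and 72.1 in Tnm2. Both promoter regions were marked in every list. In 3 of the lists the main peak also came within 2.5 kb of a start site of another gene, 4930593C16Rik, so it cannot be given to Ctnnb1 alone.

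Remote peaks of Ctnnb1 were listed in CK1750 only, 2 in each list. One 9.53 kb upstream scored 243.94 with DMSO and 135.66 with UNC0638. One 42.5 kb upstream, with a score of 153.38, was present with DMSO only and was the only one of 14 regions lost in CK1750, over all 10 genes, with a score of at least 100. The centre of that region (chr9:120886155-120886454, plus strand, GRCm38.p6) is shown because of its make-up.
Ctnnb1 upstream: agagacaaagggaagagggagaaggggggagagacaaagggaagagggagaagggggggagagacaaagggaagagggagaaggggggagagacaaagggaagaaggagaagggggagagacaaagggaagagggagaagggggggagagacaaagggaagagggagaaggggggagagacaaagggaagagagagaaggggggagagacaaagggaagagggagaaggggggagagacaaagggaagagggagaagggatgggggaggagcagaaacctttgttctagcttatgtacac
The stretch holds 9 exact copies of the 14-base unit gagacaaagggaag, in a tandem repeat. Reads from such a repeat can map to more than one place, and how they were handled at this site was not tested.

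Tcf7l2, a TCF/LEF factor that binds target genes together with β-catenin, had the most peaks. The gene spans 55741820 to 55933654 on chromosome 19 and had 24 and 18 peaks within 50 kb in CK1750 with DMSO and UNC0638, and 25 and 23 in Tnm2. As many peaks or more were found at 0.0957%, 0.433%, 0.164% and 0.0319% of protein-coding genes. Part of this follows from its length. Per 100 kb it had 8.22, 6.17, 8.57 and 7.88 peaks, and 4.64%, 8.39%, 5.13% and 1.77% of protein-coding genes were as dense. The covered length was 24.1 and 29.6 kb in CK1750 and 37.3 and 37.1 kb in Tnm2. Of the 7 genes with peaks in reach, Tcf7l2 was the only one with more covered length in both Tnm2 lists than in both CK1750 lists, and the other 6 had less. Covered length is not given for all protein-coding genes, so whether these directions are particular to the members was not tested.

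**Figure D4:**
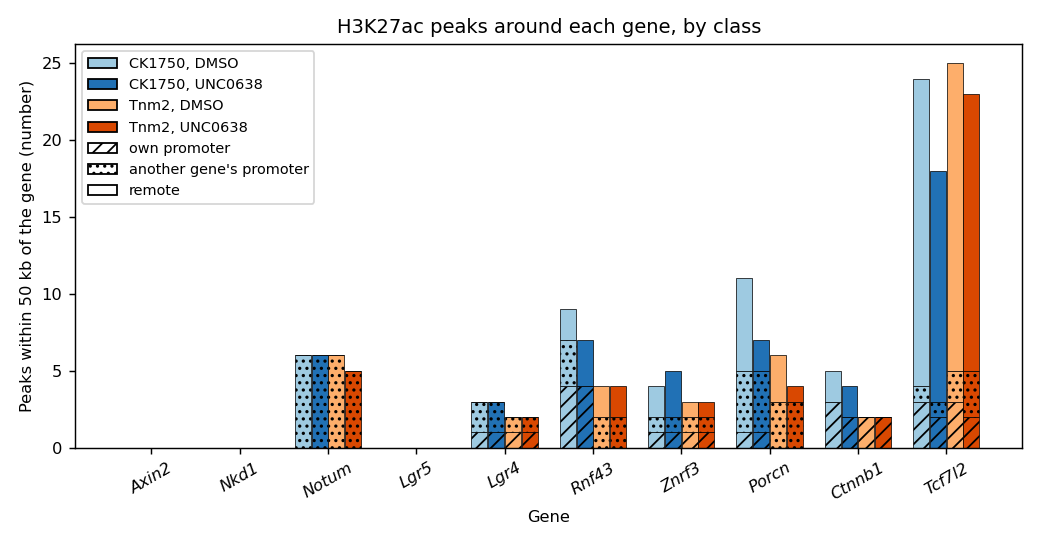
Number of H3K27ac peaks within 50 kb of each gene (vertical axis) for the 10 genes (horizontal axis), 1 bar for each of the 4 lists, split by hatching into the gene's own promoter, another gene's promoter and remote. Tcf7l2 has 18 to 25 peaks, mostly remote, while Axin2, Nkd1 and Lgr5 have 0 and the 5 or 6 peaks of Notum all lie at other promoters.

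The promoter peak of Tcf7l2 was the highest of the 10 genes in each list. It scored 2815.53 (percentile 97.3, rank 750) and 2531.46 (97.3, rank 661) in CK1750 with DMSO and UNC0638, and 2267.73 (98.5, rank 471) and 1366.1 (99.0, rank 197) in Tnm2. It thus stood near the top of every list. The ranks are not compared between lists, since the lists differ in length and in the number of peaks at the score of 3100, where scores pile up (558, 371, 169 and 10). A second promoter region directly upstream, at 55740300 to 55741990, ranked at percentile 91.3 and 88.1 in CK1750 and 80.9 and 84.7 in Tnm2. An internal group of start sites, at 55893352 to 55895662, had a weak peak with DMSO in both lines, with scores of 61.86 and 85.27, and none with UNC0638.

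Of 30 regions at Tcf7l2, 24 were remote, 18 of them centred in an intron. The longest run of neighbouring remote regions with a peak in all 4 lists comprised 6 regions over 27.7 kb (55849504 to 55877251), 108 to 135 kb from the 5′ start site and inside the gene. The order of the regions within the run differed between lines. In CK1750 the highest was at 55866702 to 55871712, with best scores of 787.77 (percentile 84.1) with DMSO and 1187.21 (90.0) with UNC0638. In Tnm2 the highest was at 55849504 to 55853766, with 1403.46 (95.8) and 403.55 (87.3). The latter region stood at percentile 68.0 and 58.1 in CK1750, and the former at 89.1 and 75.9 in Tnm2. The latter region thus stood higher in Tnm2 with either treatment. Both were also the highest distal peaks of Tcf7l2 in their lines.

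**Figure D5:**
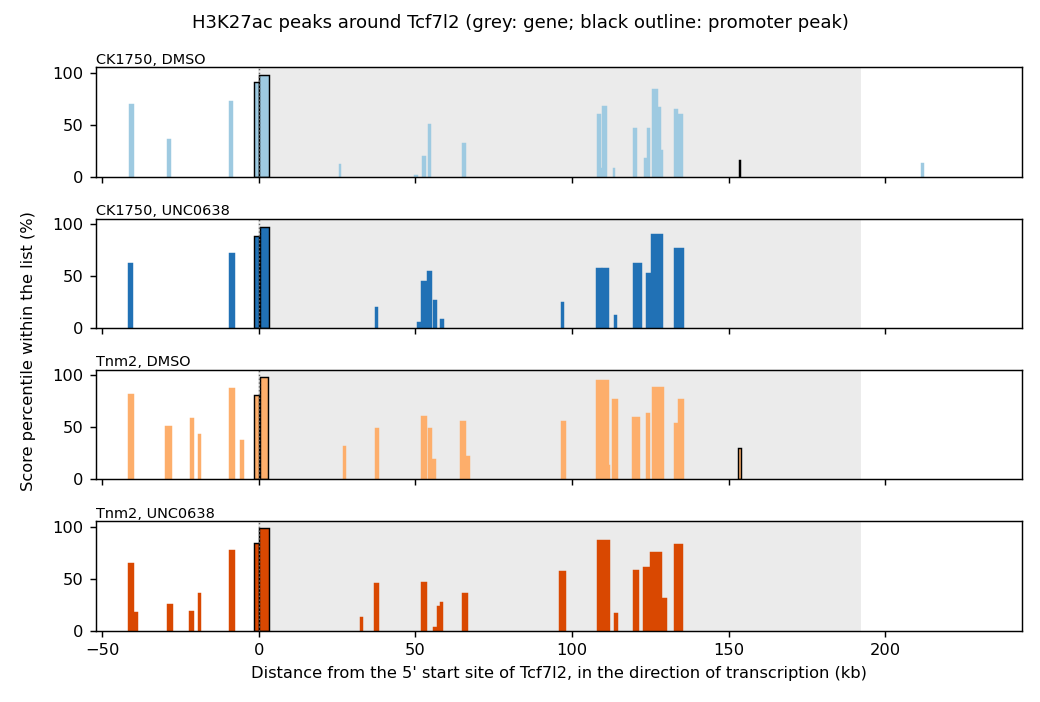
H3K27ac peaks around Tcf7l2 in the 4 lists (panels); horizontal axis, distance from the 5′ start site in the direction of transcription (kb); vertical axis, score percentile within the list (%); bars are peaks at their width, black outlines mark promoter peaks and grey the gene. The group of peaks 108 to 135 kb from the start is in every panel, with its highest bar at its first region in Tnm2 and further downstream in CK1750.

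The centres of 3 regions of this run are printed, the leading one of Tnm2 and both that hold a TCF/LEF word. The words CTTTGAT and CTTTGAA, the core bound by TCF/LEF factors, were searched on both strands, and matches are in capitals. All are on the plus strand of chromosome 19 (GRCm38.p6), at chr19:55851486-55851785, chr19:55865525-55865824 and chr19:55875602-55875901 in this order.
Tcf7l2 intron A: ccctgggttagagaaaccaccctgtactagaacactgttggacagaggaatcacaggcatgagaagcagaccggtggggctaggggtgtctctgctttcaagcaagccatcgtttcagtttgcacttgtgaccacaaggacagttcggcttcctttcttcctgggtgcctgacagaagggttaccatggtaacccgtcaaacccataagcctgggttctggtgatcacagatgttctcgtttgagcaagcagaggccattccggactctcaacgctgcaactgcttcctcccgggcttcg
Tcf7l2 intron B: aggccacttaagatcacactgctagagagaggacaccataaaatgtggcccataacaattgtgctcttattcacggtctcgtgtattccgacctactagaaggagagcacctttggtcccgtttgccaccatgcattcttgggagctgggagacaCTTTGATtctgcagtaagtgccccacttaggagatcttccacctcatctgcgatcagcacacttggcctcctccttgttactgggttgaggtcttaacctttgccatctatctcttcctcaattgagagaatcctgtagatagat
Tcf7l2 intron C: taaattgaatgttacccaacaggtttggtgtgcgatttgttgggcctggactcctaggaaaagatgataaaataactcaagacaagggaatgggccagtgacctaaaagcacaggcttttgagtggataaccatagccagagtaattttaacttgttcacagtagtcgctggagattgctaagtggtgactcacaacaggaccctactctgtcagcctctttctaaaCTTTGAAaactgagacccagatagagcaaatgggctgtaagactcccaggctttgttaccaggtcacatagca
The region of sequence B had best percentiles of 46.4 and 52.4 in CK1750 and 63.7 and 61.7 in Tnm2, and that of sequence C 65.1 and 77.1 in CK1750 and 77.3 and 83.3 in Tnm2. Both stood below the leading region of the line in every list. Over the remote regions of the 10 genes, 6 of 40 centres (15%) held a match, 4 of them at Tcf7l2 and 2 at Porcn. Among all remote regions 10.2% of 20537 centres did. Of the RefSeq promoter windows of Axin2, Lgr4, Rnf43, Nkd1, Ctnnb1 and Tcf7l2, 0 held a match, beside 8.65% of all 32851 windows. These letters were absent from those windows, and matches elsewhere near the genes were not sought.

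Upstream of Tcf7l2, regions at 55719702 to 55720921 and 55722297 to 55723215 had peaks in both Tnm2 lists and in neither CK1750 list. Their scores were 186.3 and 116.17 with DMSO and 65.15 and 87.68 with UNC0638. In sum, 7 of 30 regions at Tcf7l2 (23.3%) had peaks in Tnm2 lists only and 4 (13.3%) in CK1750 lists only, beside 23.8% and 22.4% of all 37710 regions. Of the 41 regions at the other genes, 19 (46.3%) had peaks in CK1750 lists only and 1 (2.44%) in Tnm2 lists only, that 1 being at Npb near Notum. Of the 19, 6 lay at Rnf43 and 5 at Porcn.

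Taking all 10 genes, the merged lists held 71 regions, of which 12 were promoter regions, 19 lay at promoters of other genes and 40 were remote. A peak in every list was found at 27 of 71, against 34.2% of all 37710 regions. In CK1750, 14 of 54 DMSO regions had no UNC0638 peak (25.9%, beside 23.3% of all regions) and 9 of 49 UNC0638 regions had no DMSO peak (18.4%, beside 19.2%). The member regions were close to the background there. In Tnm2, 7 of 43 DMSO regions had no UNC0638 peak (16.3%, beside 43.4%) and 5 of 41 UNC0638 regions had no DMSO peak (12.2%, beside 9.03%). A smaller share of member regions than of all regions was absent with UNC0638 in Tnm2, and this difference could not be tested. The count depends on weak peaks: without peaks scoring under 100, 13 member regions were lost in Tnm2 and not 7. No share of all regions is given for that setting, so the gap was not compared there. The 43 regions come from 7 genes, 22 of them from Tcf7l2, and without Tcf7l2 the number was 3 of 21 (14.3%). Lost regions outnumbered gained ones in both lines, but not when equal numbers of the highest-scoring peaks were used (4 lost and 5 gained in CK1750, 3 and 11 in Tnm2).

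Remote regions were also compared alone. In CK1750, 11 of 26 with DMSO had no UNC0638 peak (42.3%, beside 36.5% of all regions away from start sites) and 8 of 23 with UNC0638 had no DMSO peak (34.8%, beside 31.2%). In Tnm2 these were 4 of 22 (18.2%, beside 57.2%) and 3 of 21 (14.3%, beside 15.9%). Between lines with DMSO, 10 of 26 in CK1750 had no Tnm2 peak (38.5%, beside 40%) and 6 of 22 in Tnm2 had no CK1750 peak (27.3%, beside 52.4%). With UNC0638 these were 9 of 23 (39.1%, beside 52.4%) and 7 of 21 (33.3%, beside 31.6%). The share farthest from its background was thus that of remote regions lost in Tnm2, most of which lay at Tcf7l2 (17 of the 22 with DMSO, 3 of the 4 lost). This comparison includes weak peaks, and it was not repeated without peaks scoring under 100.

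Most regions that came and went were weak, except among those lost in Tnm2. Their scores were not set beside those of all lost or gained regions. Whether this is particular to the members was not tested. Of the 14 lost in CK1750, 13 scored under 100, as did all 9 gained there and all 5 gained in Tnm2. In Tnm2, 4 of the 7 lost scored at least 100, up to 170.24 at Ftsj1 near Porcn. No region of any member with a score above 170.24 appeared or disappeared with UNC0638 in either line.

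Between lines with DMSO, 19 of 54 CK1750 regions had no Tnm2 peak (35.2%, beside 26.7%) and 8 of 43 Tnm2 regions had no CK1750 peak (18.6%, beside 35.7%). Without Tcf7l2 these numbers were 16 of 36 (44.4%) and 1 of 21 (4.76%), and at Tcf7l2 they were 3 of 18 (16.7%) and 7 of 22 (31.8%). Of the 16, 6 lay at Porcn and 5 at Rnf43, so most came from the surroundings of these genes. The shares at Tcf7l2 were below the background in both directions, while those without Tcf7l2 were above it for CK1750 and below it for Tnm2. Over all 10 genes, the numbers became 9 and 9 when peaks scoring under 100 were left out, and 10 and 6 with lists of equal length. With UNC0638, 17 of 49 CK1750 regions had no Tnm2 peak (34.7%, beside 38.8%) and 9 of 41 Tnm2 regions had no CK1750 peak (22%, beside 18%). Pooled over the 10 genes, these shares were near the background. At Tcf7l2 they were 2 of 17 (11.8%) and 7 of 22 (31.8%), and without Tcf7l2 15 of 32 (46.9%) and 2 of 19 (10.5%). The pooled shares thus join departures in opposite directions.

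Among regions with a peak under both treatments, percentiles were compared with a shift of 20 points as the mark, a value chosen after the data had been seen. In CK1750, 1 of 40 member regions was higher by that much with UNC0638 and 1 lower (beside 5.75% and 9.52% of all shared regions). In Tnm2, 0 of 36 were higher (beside 1.63%) and 9 were lower (beside 31.8%), with a median difference of -11.8 points, against -11.02 over all shared regions. The member regions thus shifted as the list did. Between lines with DMSO, 5 of 35 were higher in Tnm2 (beside 15.5%), 4 of them at Tcf7l2, and 3 were lower (beside 9.63%). With UNC0638, 3 of 32 were higher in Tnm2 (beside 7.26%), all at Tcf7l2, and 8 were lower (beside 24%), 3 of them at Porcn.

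The rest of the pathway was described by a list of 47 genes. Promoter peaks were found at 29 and 28 of them in CK1750 with DMSO and UNC0638, and at 28 and 22 in Tnm2. A peak in every list was found at 22, and none at 18. Over all protein-coding genes the shares with a promoter peak were 50%, 49.1%, 49.4% and 41.3% in the same order. A peak in every list was found at 39.3% of them, and none at 46%. Among destruction complex and scaffold genes 8 of 9 were marked in every list, and the exception, Amer1, scored 54.98 in Tnm2 with DMSO and was absent with UNC0638. Of the 5 R-spondin and receptor genes the receptor gene Lgr6 alone had a promoter peak, in all 4 lists at percentiles 75.1, 78.8, 92.5 and 91.9. The ligands Rspo1 to Rspo4 had none in any list. Lgr6 thus shared with Lgr4 a peak in every list that Lgr5 lacked.

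Of 11 antagonist genes, 1 was marked in every list (Kremen1) and 8 in none. Apcdd1, a membrane inhibitor, was missing in Tnm2 with UNC0638 only, and Trabd2b, a protease that cleaves Wnt ligands, had peaks in CK1750 only (266.07 and 136.99), like Rnf43 and Porcn. Among the 10 nuclear partners, Tcf7l1, Bcl9l and Pygo2 had a peak in 3 lists and none in Tnm2 with UNC0638, with DMSO scores in Tnm2 of 435.11, 187.5 and 257.43. Of all protein-coding genes with a promoter peak in Tnm2 with DMSO, 17.7% had none with UNC0638. Tcf7 and Lef1, which with Tcf7l1 and Tcf7l2 make up the TCF/LEF family, had none in any list. Dvl2, which relays the signal from the receptor, had a weak peak with DMSO in both lines (110.27 and 59.46) and none with UNC0638. Of 6 target genes Myc, Ccnd1 and Cd44 were marked in every list, and Sp5, Ascl2 and Sox9 in none. Among the 10 genes described first, Axin2, Lgr5, Nkd1 and Notum had none either, and 6 had one in each CK1750 list.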

How the data were processed

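The authors immunoprecipitated and sequenced H3K27ac chromatin from CK1750 and Tnm2 cells given DMSO or UNC0638. According to the submitters' processing notes and the study's methods, reads were mapped with Bowtie2 to mm10, SAMtools was used, and MACS 1.4.2 was run for peaks with a cutoff on P of 1e-05. The deposited lists give the position and score of each peak, and the score is minus 10 times the log10 of P from the authors' caller. All samples of a group point to 1 list. Which libraries it pools, whether input DNA was the control, and the depth are not given in the sources used here. The study states more biological replicates than the labels number.

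Groups followed the sample labels. Start sites came from GENCODE release M21, all transcripts, and 0 peaks ended beyond a chromosome end. Regions were the merged intervals of the 4 lists (1 bp overlap), classed by the best class of any list. A region was called lost or gained with UNC0638 when it had a peak in 1 of the 2 lists of a line. Intervals and tests for differences between lists need replicates or depth and were not computed. Background shares were over protein-coding genes on the main chromosomes or over all regions. For every member the highest promoter and distal peak of each list was named, and other pathway genes where presence differed between lists. The members and lists were chosen with earlier results of these data known. RefSeq promoter windows (GRCm38.p6) were found for 6 of 10 genes. Alternatives were a score of at least 100, equal numbers of the highest-scoring peaks, a 1 kb promoter window, a reach of 10 or 100 kb, start sites of protein-coding transcripts, and joining of peaks up to 1 kb apart. Overlap scripts were tested on simulated data. Python 3.11.15 and matplotlib were used.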

Additional observations from a re-analysis of the deposited data

How the results depend on the processing

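The numbers of the 10 genes with a promoter peak were 6, 6, 4 and 4 under each of the 6 alternatives run for them (joining of peaks was run for regions only). A reach of 10 or 100 kb could not alter these numbers or the promoter medians. Over 20 results, 89 of 128 alternative values stayed within the limits set and 39 did not. The limits were 1.5 times for counts, and for percentiles the Wilson 95% interval of the reported percentile over the peaks of the list. That interval was a limit only: it treats peaks as independent and does not measure the spread of a median over 6 or 4 genes. Further values among the 89 could not have moved. The promoter window and the choice of start sites do not enter lost, gained or line-only regions. Equal numbers of peaks leave the Tnm2 list with UNC0638 as it is. Values are in the order CK1750 with DMSO, CK1750 with UNC0638, Tnm2 with DMSO and Tnm2 with UNC0638 where 4 are given. With a score of at least 100, distal peaks of the members numbered 28 in CK1750 with DMSO and 16 in Tnm2 with UNC0638, the median promoter percentiles were 71.5, 69.3, 73.6 and 45.8, while CK1750 lost 1 region and gained 2, and Tnm2 lost 13 and gained 0. In that setting the regions in CK1750 only with DMSO were 9 and those in Tnm2 only with UNC0638 were 2. With each list cut to its 18794 highest-scoring peaks, distal peaks in CK1750 with DMSO were 31, the medians in the first 3 lists were 73.8, 72.7 and 73.1, CK1750 lost 4 regions and gained 5, Tnm2 lost 3 and gained 11, and regions in CK1750 only were 10 with DMSO and 10 with UNC0638. With a reach of 10 kb, distal peaks were 22, 19, 20 and 19, CK1750 lost 4 regions (gained 6) and Tnm2 lost 4 (gained 4), regions in CK1750 only were 9 with either treatment, and regions in Tnm2 only were 5 with DMSO and 3 with UNC0638. Lost regions thus did not outnumber gained ones with lists of equal length or a reach of 10 kb in either line, or with a score of at least 100 in CK1750; the cause was not tested. With a reach of 100 kb, 14 were lost in Tnm2. Joining peaks up to 1 kb apart left 4 gained in CK1750 and 2 in Tnm2. With a 1 kb window, and likewise with protein-coding start sites, the CK1750 medians were 80.4 and 77.2. The further-downstream peak of Rnf43 was then not counted. No paired analysis was possible because each group has 1 merged list and the lists carry no replicate numbers, and for the same reason no replicate could be left out. Depth is unknown, so a weak peak missing from a list is not evidence that the mark was absent.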
